A study of Mus musculus with 12 samples.

Results

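The comparison is between subcutaneous colorectal tumours of stressed mice given a high dose of Xiaochaihu decoction (labelled XCHT-H) and tumours of stressed mice given a low dose of it (XCHT-L). Libraries were placed by the dose named in their labels, which gave 3 high-dose and 3 low-dose libraries, 6 of the 12 in the series. Xiaochaihu decoction is a classical Chinese preparation of several herbs built on bupleurum and scutellaria roots. Mice of both dose groups carried a subcutaneous tumour and were kept under chronic stress. The other 6 libraries come from tumour-bearing mice under chronic stress without the decoction (3, called stress below) and from tumour-bearing mice without stress (3, called control). The size of either dose, the length of treatment, the stress procedure, the tumour cells used and the strain, sex and age of the mice are not given in the sources used here. The labels do not say whether the 3 libraries of each group are from different mice. P-values therefore measure the spread between these libraries, which may be technical.

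A subcutaneous tumour is a mixture of malignant cells, fibroblasts, blood vessels and immune cells, and bulk RNA sequencing reads all of them at once. Immediate early genes such as Fos, Junb and Ier2 are transcribed within minutes of growth factor, stress or handling signals and encode short-lived transcription factors and feedback regulators. Dendritic cells present antigen on MHC class II molecules, whose genes are switched on by the coactivator Ciita, and Notch3 is the Notch receptor of the mural cells that wrap blood vessels. Cholesterol synthesis enzymes are controlled together by the transcription factor encoded by Srebf2.

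The 12 libraries held between 16734741 and 17950195 estimated counts over 17875 genes, and 15476 to 15775 genes had at least 1 count. Most markers of colorectal epithelium were scarce: 12 of the 16 in the tables did not pass the filter on low counts, Krt8, Krt18 and Krt20 stayed at or below 0.115 CPM (read counts scaled to a common library size with TMM factors) and Epcam at or below 0.813 CPM in every library. Vim, an intermediate filament of mesenchymal cells, was at 3001, 3478 and 2999.5 CPM in the high-dose libraries and at 2709.6, 3488 and 3384 CPM in the low-dose libraries. Of the 4 epithelial markers that passed, Sox9, a transcription factor also made outside epithelium, was at 121, 143 and 150.3 CPM in high dose, against 151, 149 and 225 CPM in low dose. Cdh1, E-cadherin, was at 5.61, 10.1 and 10.4 CPM in high dose, against 8.82, 9.31 and 16.9 CPM in low dose, Lgals4 at 11.8, 7.17 and 10.7 CPM against 14.7, 19.03 and 6.26 CPM, and Muc2 at or below 0.813 CPM. The keratin and Epcam values thus go against the label in both doses, whereas Cdh1 and Lgals4 were detected, and the tissue is called tumour below.

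The high-dose libraries resembled each other more than the low-dose libraries did. The standard deviation of the log2 ratio between a pair of libraries was 0.267 to 0.395 within high dose and 0.456 to 0.511 within low dose. Between a high-dose and a low-dose library it was 0.210 to 0.499. The closest pair across doses, high-dose replicate 1 with low-dose replicate 1 at 0.210, was closer than any pair within either dose, yet their counts still differed by 10.01 times the variance that counting gives, so they were kept as separate libraries. Most other pairs across doses were also closer than any pair within low dose. Among them were high-dose replicate 3 with low-dose replicate 1 at 0.270 and high-dose replicate 2 with low-dose replicate 3 at 0.311. The median over the 9 pairs across doses was 0.429, below the lowest value within low dose, so no low-dose library lay close to another. Results that change when a library is left out are given with and without it.

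No gene passed an adjusted p of 0.05 between high and low dose. Of 13453 genes tested with edgeR's quasi-likelihood test and Benjamini-Hochberg adjustment, 0% passed, and the smallest adjusted p was 0.549. An unadjusted p under 0.05 was found for 860 genes, 6.39% of those tested, against 673 expected if all p-values were uniform. Among these, 370 genes (2.75%) were higher and 490 (3.64%) lower in high dose. The 3 and 3 libraries did not overlap for 988 genes (7.34%), of which 560 (4.16%) were higher and 428 (3.18%) lower in high dose. Limma-voom with quality weights also called 0 genes, with 778 at an unadjusted p under 0.05, whereas DESeq2 called 5 genes, named below, with 934. Leaving out low-dose replicate 1 gave 99 called genes (0.726% of 13636), 39 higher and 60 lower in high dose. Leaving out any other single dose library gave 0.

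Each dose can be set beside stress in the same model, and both of those comparisons use the same 3 stress libraries. The unadjusted p was under 0.05 for 191 genes between high dose and stress and for 1796 between low dose and stress, and with edgeR 0 genes passed the adjusted threshold in either. For Notch3 and the medians of the immediate early, dendritic cell and cholesterol synthesis lists, high dose lay nearer to stress than low dose did. Those differences are given below. Other lists went the other way, with medians against stress of 1.96 in high dose and 0.11 in low dose for red blood cell genes. For skeletal muscle genes these were 2.64 and 1.05, and for endothelial genes 0.30 and -0.21.

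Among genes that met the rule for naming, which asks for an official symbol, a mean FPKM of 1 or more and no overlap, Notch3 had the smallest unadjusted p (Entrez 18131, chromosome 17, 32120820 to 32166896 in GRCm38.p6). Its level was 14.8, 11.5 and 12.2 CPM in the high-dose libraries, against 8.26, 6.50 and 5.18 CPM in the low-dose libraries. Every high-dose library lay above every low-dose library, and the 3 stress libraries, at 15.3, 13.4 and 13.1 CPM, lay with high dose. Means were 12.8 ± 1.72 CPM in high dose and 6.64 ± 1.55 CPM in low dose (SD, n = 3 each), a log2 fold change of 0.95 (SE 0.18). The adjusted p for Notch3 was 0.549 with edgeR and 0.00567 with DESeq2, and 0.0435 with edgeR without low-dose replicate 1. Against stress, the log2 fold change of Notch3 was -0.12 (SE 0.17) in high dose and -1.06 (SE 0.18) in low dose.

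For the other 9 genes that were higher in high dose with the smallest unadjusted p, log2 fold changes ran between 0.43 and 1.20. Itga6, a laminin-binding integrin subunit, was at 56.2, 62.0 and 50.2 CPM in high dose, against 42.6, 32.8 and 27.9 CPM in low dose, a log2 fold change of 0.70 (SE 0.16). Itga1, the subunit of a collagen-binding integrin, was at 5.05, 8.05 and 5.98 CPM in high dose, against 3.15, 2.87 and 4.52 CPM in low dose, and its log2 fold change was 0.86 (SE 0.23). Vcl, the focal adhesion protein vinculin, was at 170.0, 182 and 169 CPM in high dose, against 139, 118 and 131 CPM in low dose, with a log2 fold change of 0.43 (SE 0.11). The groups did not overlap for any of these 3 genes, and the rule that chose them required that. Etl4 (0.54, SE 0.12), Tmem176a (0.93, SE 0.23), Hivep3 (0.71, SE 0.18), the kinase gene Sgk3 (0.61, SE 0.15), the lipid phosphatase gene Lpin2 (0.47, SE 0.12) and Clic5 (1.20, SE 0.32) complete the set, as log2 fold changes. The adjusted p was 0.758 for each of these 9 genes with edgeR. Against stress, the log2 fold change of high dose lay between -0.22 (Tmem176a) and 0.13 (Itga6) for all of these genes and Notch3 except Clic5, where it was 0.83 (SE 0.31). After trends with transcript length and GC content were removed, the log2 fold changes between the doses of these 9 genes ran from 0.33 (Vcl) to 1.11 (Clic5). Etl4 was then at 0.37, Hivep3 at 0.50, Itga1 at 0.66 and Notch3 at 0.78, whereas Tmem176a was at 0.97.

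Among the 10 genes that were lower in high dose with the smallest unadjusted p, 2 were immediate early genes, 2 encode ribosomal proteins and 1 is a chemokine gene. Ccl9, which attracts myeloid cells, was at 60.4, 43.0 and 55.7 CPM in high dose, against 76.3, 76.1 and 86.1 CPM in low dose, a log2 fold change of -0.58 (SE 0.16). Siglec15, a sialic acid receptor of osteoclasts and macrophages, was at 0.444, 0.706 and 1.10 CPM in high dose, against 1.405, 2.07 and 11.1 CPM in low dose, a log2 fold change of -2.68 (SE 0.67). A single low-dose library, replicate 3, held most of the Siglec15 counts, whereas the Ccl9 level was even within low dose. Chchd6, a protein of mitochondrial cristae (-0.51, SE 0.14), Ostf1 (-0.38, SE 0.10) and the prefoldin subunit gene Pfdn1 (-0.50, SE 0.14) were the smaller differences on the log2 scale. Tmem254c was at 0.222, 0.176 and 0.290 CPM in high dose, against 5.00, 2.18 and 5.60 CPM in low dose. This value is uncertain, because its near copy Tmem254b was at 20.6, 20.9 and 19.0 CPM in high dose and at 18.5, 19.4 and 9.93 CPM in low dose, and reads may be shared between copies. All of these 10 genes had an adjusted p of 0.758 with edgeR. With the length and GC trends removed, the log2 fold change was -0.33 for Pfdn1, -0.43 for Chchd6, -0.36 for Ostf1 and -0.56 for Ccl9.

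**Figure D1:**
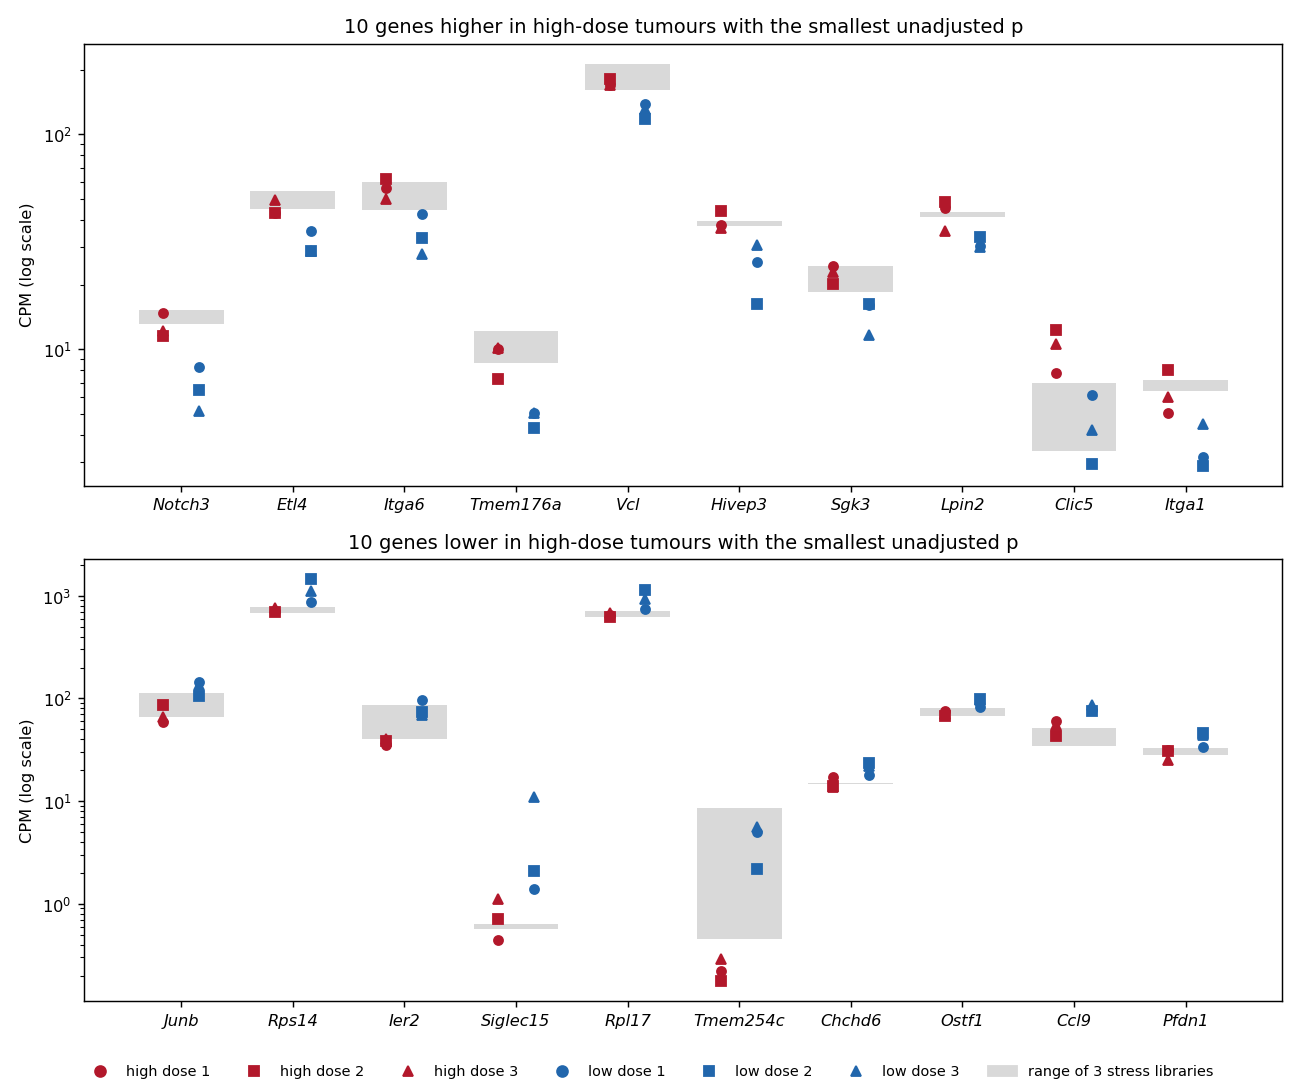
Level of the 10 higher and 10 lower genes with the smallest unadjusted p, in CPM on a log axis. Red points are the 3 high-dose libraries (left) and blue points the 3 low-dose libraries (right), the circle, square and triangle mark replicates 1, 2 and 3, and the grey band spans the 3 stress libraries. For Notch3 the high-dose points lie between 11.5 and 14.8 CPM and the low-dose points between 5.18 and 8.26 CPM.

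The immediate early genes were the gene list with the lowest median between the doses. All 23 list members passed the filter on low counts, 21 were lower and 2 (Klf4 and Fosl2) higher in high dose, and the median log2 fold change was -0.63. Over all genes tested, 50.8% were higher and 49.2% lower, and the median was 0.0042. At an unadjusted p under 0.05, 8 members were lower and 0 higher, against 3.64% and 2.75% of all genes, and 6 members did not overlap between the groups, all lower, against 3.18% of all genes. No member passed the adjusted threshold. The median against stress was -0.12 in high dose and 0.54 in low dose.

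Promoters are shown for 2 members whose doses did not overlap, Junb, a subunit of the AP-1 transcription factor, and Dusp1, a phosphatase that shuts off MAP kinases, because many early genes carry the TGACG element of cyclic AMP signalling. The sequences are from RefSeq (GRCm38.p6), 250 bases before to 50 bases after the transcription start, 5′ to 3′ on the gene's strand. Junb lies at chr8:84978699-84978998 and Dusp1 at chr17:26508423-26508722, both on the minus strand. Capitals mark TGACG.
Junb: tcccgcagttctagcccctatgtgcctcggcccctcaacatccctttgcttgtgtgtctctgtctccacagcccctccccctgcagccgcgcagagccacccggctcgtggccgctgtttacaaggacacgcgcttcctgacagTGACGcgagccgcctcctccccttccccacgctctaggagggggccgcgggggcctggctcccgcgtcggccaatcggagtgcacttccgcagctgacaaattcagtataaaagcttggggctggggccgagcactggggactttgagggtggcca
Dusp1: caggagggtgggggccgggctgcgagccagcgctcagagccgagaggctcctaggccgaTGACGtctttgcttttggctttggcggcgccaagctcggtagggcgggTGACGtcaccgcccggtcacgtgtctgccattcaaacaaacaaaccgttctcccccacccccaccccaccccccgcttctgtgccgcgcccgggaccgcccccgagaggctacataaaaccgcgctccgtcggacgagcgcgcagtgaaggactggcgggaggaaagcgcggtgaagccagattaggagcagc

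Both strands were searched for TGACG, and a match on the other strand that overlaps one in capitals is not marked. The TGACG letters were in 9 of the 17 immediate early promoters with an entry (52.9%), against 30.8% of the 10699 promoters of all tested genes with an entry. They were as frequent in the cholesterol synthesis genes described below, in 8 of 15 promoters (53.3%), so the letters do not set the early genes apart. The longer TGACGTCA, which contains TGACG, was in 2 of the 17, Dusp1 and Btg2, against 3.12% of all promoters. A match of letters is a description of these windows and not a measured binding site.

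Junb was at 58.4, 86.3 and 65.7 CPM in high dose, against 145, 105 and 135 CPM in low dose, and the stress libraries were at 75.5, 66.2 and 113 CPM. High dose lay below low dose in every library, and 2 of the 3 stress libraries lay within the high-dose range. Means were 70.2 ± 14.5 CPM in high dose and 129 ± 20.8 CPM in low dose (SD, n = 3 each), a log2 fold change of -0.87 (SE 0.21). With edgeR the adjusted p of Junb was 0.758, and with DESeq2 it was 0.0719. Ier2, an immediate early nuclear regulator, was at 35.4, 38.5 and 40.0 CPM in high dose, against 97.4, 74.2 and 69.2 CPM in low dose, with stress at 39.8, 40.7 and 85.6 CPM. The high-dose libraries of Ier2 were nearly equal and all below low dose, and the log2 fold change was -1.08 (SE 0.26), with an adjusted p of 0.758 with edgeR and 0.0604 with DESeq2.

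Dusp1 was at 63.4, 33.6 and 43.9 CPM in high dose, against 167, 72.7 and 82.4 CPM in low dose, a log2 fold change of -1.19 (SE 0.46). Ier3, an early gene that responds to NF-κB and growth factors, was at 8.05, 13.3 and 10.2 CPM in high dose, against 14.7, 16.8 and 52.1 CPM in low dose, a log2 fold change of -1.40 (SE 0.47). Low-dose replicate 1 had the highest Dusp1, Junb and Ier2, and also the highest Egr1 and Fos given below, whereas low-dose replicate 3 had the highest Ier3. Without low-dose replicate 1 the log2 fold change of Dusp1 was -0.72. Egr1, a zinc finger transcription factor, was at 43.4, 21.0 and 31.0 CPM in high dose, against 144, 49.9 and 83.3 CPM in low dose, and Atf3, a stress-induced transcription factor, at 9.28, 17.1 and 14.3 CPM against 23.3, 23.7 and 22.5 CPM. Egr1, Atf3 and the next members were chosen after their values were seen. Fos, the partner of Jun proteins in AP-1, was at 20.3, 13.3 and 15.2 CPM in high dose, against 135, 15.8 and 37.99 CPM in low dose, and its doses overlapped. The stress libraries were as uneven as the low-dose libraries for several of these genes: stress replicate 3 had 133 CPM of Egr1, against 26.2 and 21.4 CPM in stress replicates 1 and 2.

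The direction of the list held with each of the 6 libraries left out, with a median log2 fold change between -0.48, when low-dose replicate 1 was omitted, and -0.76, when the omitted library was low-dose replicate 2. It was -0.57 after the trends with transcript length and GC content were removed.

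**Figure D2:**
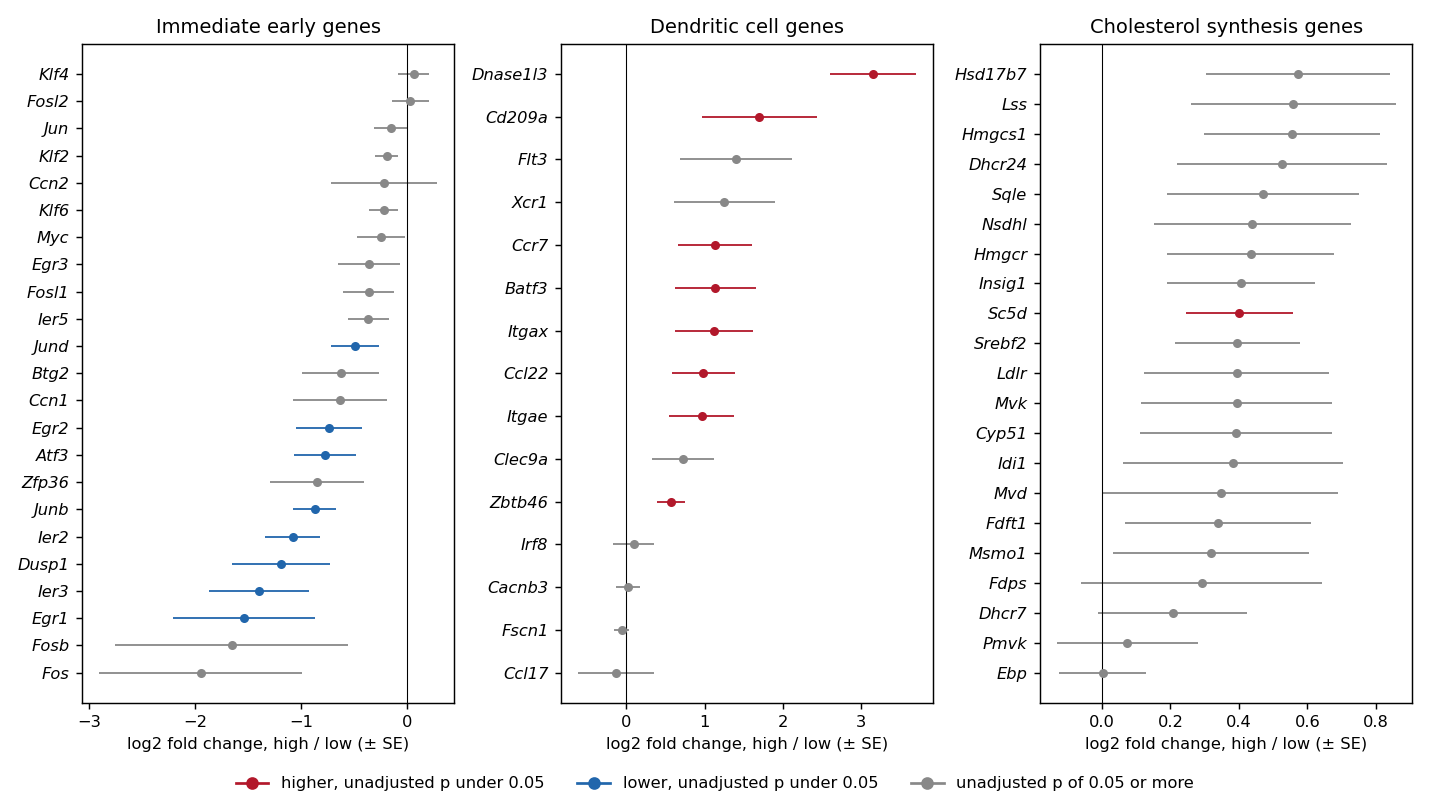
Log2 fold change, high dose minus low dose, with its SE for each tested member of the immediate early, dendritic cell and cholesterol synthesis lists, coloured where the unadjusted p was under 0.05. Of the immediate early genes 21 of 23 lie below 0, of the dendritic cell genes 13 of 15 lie above 0, and all 21 cholesterol synthesis genes lie above 0.

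Ribosomal protein genes were lower in high dose in 34 of 35 cases, with a median log2 fold change of -0.40. At an unadjusted p under 0.05, 27 were lower, against 3.64% of all genes, and 6 did not overlap between the doses, against 3.18%. Rps14, a small subunit protein, was at 711, 694 and 761 CPM in high dose, against 864, 1441 and 1105 CPM in low dose, a log2 fold change of -0.65 (SE 0.16, adjusted p 0.758 with edgeR). Rpl17, a large subunit protein outside the list, was at 642, 626 and 685 CPM in high dose, against 747, 1146 and 922 CPM in low dose. Within the list, Rps7 was at 695, 707 and 718 CPM in high dose, against 781, 1151 and 902 CPM in low dose, and Rpl7 at 1058, 1001 and 1109 CPM against 1145, 1663 and 1328 CPM. The order inside low dose was the same for each of these 4 genes, with replicate 2 highest and replicate 1 nearest to high dose. Ribosomal protein genes have many processed pseudogenes, so their counts are uncertain where reads were split among copies. Rpl23 was the exception in the list (log2 fold change 0.27, SE 0.28), because of 742 CPM in high-dose replicate 3 against 328 and 312 CPM in the other 2 high-dose libraries.

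The ribosomal protein genes have short transcripts, with a median length of 1120 bases. Across all genes, the fold change between the doses rose with transcript length, though the trend was uneven between the libraries of each dose. The median log2 fold change was -0.24 for the 487 genes under 1000 bases, -0.03 for the 5483 genes of 2000 to 4000 bases and 0.18 for the 752 genes over 8000 bases. Across genes, the deviation of a library from the mean of all libraries had a correlation with log2 transcript length of -0.03, -0.04 and 0.30 in the high-dose libraries and 0.04, -0.52 and -0.16 in the low-dose libraries. Genes are not independent replicates, so these values are descriptions. Low-dose replicate 2, the library with -0.52, was also the one highest in ribosomal protein genes, whose CPM summed to 28098, 29916 and 29581 in high dose and to 28604, 47800.0 and 37307 in low dose. The ribosomal protein median was -0.18 without low-dose replicate 2 and -0.19 after the length and GC trends were removed.

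**Figure D3:**
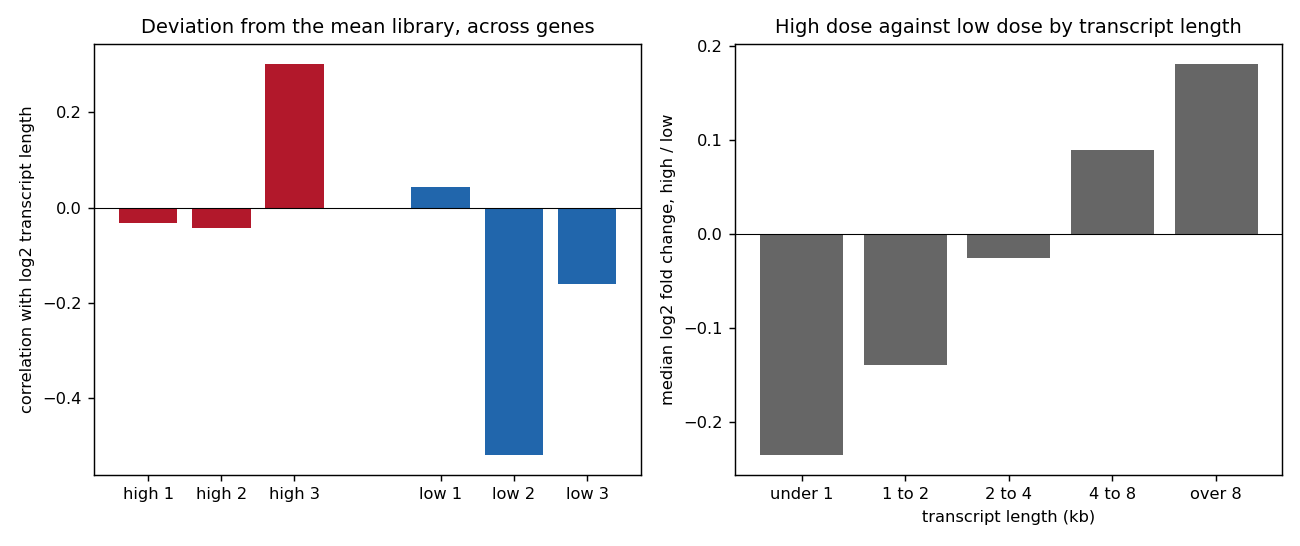
Left, correlation across genes of each library's deviation with log2 transcript length, high-dose libraries left of low-dose libraries. Right, median log2 fold change (high dose minus low dose) in 5 bins of transcript length, which runs from -0.24 under 1000 bases to 0.18 over 8000 bases.

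Genes of oxidative phosphorylation, which encode nuclear subunits of the respiratory chain, were lower in high dose in 31 of 32 cases with a median of -0.21. Of these, 9 were lower at an unadjusted p under 0.05, against 3.64% of all genes. Only 1, the complex I subunit gene Ndufa2, did not overlap, which is near the 3.18% of all genes. Ndufa2, chosen after its values were seen, was at 30.3, 33.6 and 25.1 CPM in high dose, against 34.2, 58.5 and 41.4 CPM in low dose, a log2 fold change of -0.59 (SE 0.18). The median was -0.07 after the length and GC trends were removed, and -0.17 and -0.13 without low-dose replicates 3 and 2.

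Glycolysis genes were lower in high dose in 17 of 18 cases and hypoxia-induced genes in 20 of 23, with medians of -0.40 and -0.42. Only Tpi1, triosephosphate isomerase, had an unadjusted p under 0.05, 1 of 18 glycolysis genes and 0 of 23 hypoxia genes, against 3.64% of all genes lower. By this count the lists did not stand out from all genes. The doses overlapped for every member of both lists, whereas 3.18% of all genes were lower without overlap. Tpi1 was at 460.4, 605 and 453 CPM in high dose, against 411, 989 and 862 CPM in low dose, a log2 fold change of -0.57 (SE 0.26). Low-dose replicate 1 was the lowest of the 6 libraries and low-dose replicates 2 and 3 the highest, so the doses overlapped. Ldha, lactate dehydrogenase A, followed the same order with 924, 1246 and 992 CPM in high dose, against 786, 1929 and 1876 CPM in low dose. Bnip3, a mitophagy receptor induced by hypoxia, was at 106, 145 and 101 CPM in high dose, against 88.1, 249.6 and 299 CPM in low dose, and P4ha2, a collagen prolyl hydroxylase subunit, at 65.3, 97.0 and 53.6 CPM against 53.3, 120.4 and 179.7 CPM. The oxygen sensor gene Egln1 was at 105, 131 and 118 CPM in high dose, against 104, 166 and 196 CPM in low dose. Without low-dose replicate 1 the hypoxia median was -0.72 and Tpi1 passed with edgeR (log2 fold change -0.87, adjusted p 0.0456), whereas without low-dose replicate 3 the hypoxia median was 0.05.

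Dendritic cell genes were higher in high dose. Of the 15 list members that passed the filter on low counts, out of 16 in the tables, 13 were higher and 2 lower, with a median log2 fold change of 0.98. At an unadjusted p under 0.05, 8 were higher, against 2.75% of all genes, and 5 did not overlap between the doses, all higher, against 4.16% of all genes. The median against stress was -0.24 in high dose and -1.03 in low dose. Zbtb46, the transcription factor of classical dendritic cells, was at 19.6, 16.9 and 17.7 CPM in high dose, against 15.6, 10.1 and 10.8 CPM in low dose, a log2 fold change of 0.57 (SE 0.18). Ccr7, the receptor that guides mature dendritic cells to lymph nodes, was at 2.06, 2.00 and 1.22 CPM in high dose, against 0.843, 0.460 and 1.08 CPM in low dose (1.14, SE 0.47, on the log2 scale). Ccl22, a chemokine of mature dendritic cells, was at 4.94, 3.29 and 2.67 CPM in high dose, against 2.19, 0.977 and 2.35 CPM in low dose (0.98, SE 0.40). Every high-dose library lay above every low-dose library for these 3 genes, and low-dose replicate 2 was the lowest each time.

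Several defining dendritic cell genes were near the limit of detection. Xcr1 was at 2.44, 0.588 and 1.22 CPM in high dose, against 1.29, 0.230 and 0.241 CPM in low dose, and Flt3 at 1.22, 0.764 and 0.930 CPM against 0.787, 0.230 and 0.0602 CPM. Both were chosen as markers of the cell type, and their doses overlapped. Fscn1, which is also made by tumour cells, was at 199, 223 and 203 CPM in high dose, against 203, 221 and 228 CPM in low dose, and it sets most of the summed level of the list. In bulk tissue, fewer cells of a type and less RNA per cell cannot be told apart. The list median stayed between 0.70 and 1.13 with each library left out.

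The list also holds Dnase1l3, a secreted DNA-degrading enzyme of dendritic cells and macrophages, which DESeq2 called. Dnase1l3 was at 2.50, 3.76 and 1.63 CPM in high dose, against 0.562, 0.0575 and 0.241 CPM in low dose, and at 4.72, 3.32 and 2.29 CPM in stress. Its log2 fold change was 3.16 (SE 0.55), with an adjusted p of 0.549 with edgeR and 0.000202 with DESeq2. Tlr12, a Toll-like receptor of mouse dendritic cells and macrophages, had the smallest unadjusted p of all genes with edgeR. Its level was 1.72, 2.94 and 1.86 CPM in high dose, against 0.562, 0.345 and 0.421 CPM in low dose, with 3.73, 2.21 and 1.83 CPM in stress. The log2 fold change of Tlr12 was 2.27 (SE 0.38), with an adjusted p of 0.549 with edgeR and 0.00622 with DESeq2. Both genes lie below the FPKM limit set for named genes and were chosen after their values were seen. The other genes called by DESeq2 were Notch3 and Tmem254c, described above, and Gm20594, a gene model named only by its identifier, which was at 9.78, 6.82 and 8.19 CPM in high dose, against 16.1, 20.01 and 18.8 CPM in low dose (adjusted p 0.00354 with DESeq2).

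All 9 MHC class II genes of the list were higher in high dose, with a median log2 fold change of 0.85 and 4 members whose doses did not overlap, against 4.16% of all genes. None of them had an unadjusted p under 0.05. The promoter of H2-Eb1 is shown because most class II promoters with an entry held the CCAAT letters, which also occur in their conserved control region (chr17:34305617-34305916, plus strand, RefSeq, GRCm38.p6). Capitals mark every match on either strand, and whether a match lies in that region was not tested.
H2-Eb1: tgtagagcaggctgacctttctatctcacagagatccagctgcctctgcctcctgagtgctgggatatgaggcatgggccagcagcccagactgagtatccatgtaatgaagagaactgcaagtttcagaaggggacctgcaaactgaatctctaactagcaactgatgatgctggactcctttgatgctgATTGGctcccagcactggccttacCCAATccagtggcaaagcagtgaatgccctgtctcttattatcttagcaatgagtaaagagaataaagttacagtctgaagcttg

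CCAAT or its reverse complement was in 5 of the 6 class II promoters with an entry, against 39.1% of all promoters. The letters were also in 14 of the 15 cholesterol synthesis promoters described below, so they do not set the class II genes apart. H2-Eb1, a class II beta chain, was at 224, 304 and 239 CPM in high dose, against 210.5, 56.5 and 106 CPM in low dose, with stress at 496, 263 and 149 CPM. Low-dose replicate 1 lay just under the high-dose range, and the other 2 low-dose libraries far below it. The log2 fold change of H2-Eb1 was 1.04 (SE 0.47). Ciita, the coactivator of these genes, was at 35.4, 52.5 and 32.7 CPM in high dose, against 31.4, 8.62 and 21.4 CPM in low dose, a log2 fold change of 0.97 (SE 0.49). H2-Ab1 was at 253, 336 and 238 CPM in high dose, against 232, 80.5 and 145 CPM in low dose, and H2-Aa at 322, 405 and 332 CPM against 317, 82.9 and 159.7 CPM. The CPM of the list summed to 1495, 1913 and 1464 in high dose, to 1436, 466 and 863 in low dose, and to 2873, 1602 and 928 in stress. The class II median was 0.54 without low-dose replicate 2, and it was 1.29 when low-dose replicate 1 was omitted.

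Genes of the vessel wall were higher in high dose as well. Of 18 endothelial genes 17 were higher, with a median log2 fold change of 0.45, 2 at an unadjusted p under 0.05 (against 2.75% of all genes) and 4 without overlap (against 4.16%). Of 12 tested pericyte and smooth muscle genes 10 were higher, with a median of 0.65, 3 at an unadjusted p under 0.05 and 3 without overlap, against the same shares of all genes. The pericyte median was 0.39 and the endothelial median 0.29 without high-dose replicate 2. Cldn5, a tight junction protein of endothelium, was at 2.06, 2.76 and 1.68 CPM in high dose, against 0.730, 0.920 and 1.20 CPM in low dose (1.18, SE 0.35, on the log2 scale). Erg, an endothelial transcription factor, was at 4.72, 4.12 and 3.08 CPM in high dose, against 2.42, 1.61 and 2.47 CPM in low dose (0.87, SE 0.34). Both were higher in every high-dose library than in any low-dose library. Mcam, an adhesion molecule of pericytes and endothelium, was at 34.2, 46.2 and 23.5 CPM in high dose, against 22.4, 17.9 and 19.4 CPM in low dose (0.80, SE 0.26). Abcc9, a potassium channel subunit of pericytes, was at 9.67, 6.70 and 8.08 CPM in high dose, against 6.57, 2.30 and 2.71 CPM in low dose (1.07, SE 0.39). Acta2, the contractile actin of smooth muscle, overlapped, with 17.4, 39.9 and 12.03 CPM in high dose, against 15.1, 15.9 and 39.5 CPM in low dose. The endothelial median against stress was 0.30 in high dose and -0.21 in low dose, and it was 0.25 between the doses without low-dose replicate 2.

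Notch pathway genes were higher in high dose in 11 of 13 cases, with a median of 0.36, and 3 members had an unadjusted p under 0.05, against 2.75% of all genes. Besides the receptor gene Notch3, these were the target genes Hey1 and Heyl. Hey1 was at 5.11, 3.70 and 2.85 CPM in high dose, against 2.53, 2.41 and 2.29 CPM in low dose (0.69, SE 0.31, on the log2 scale). The endothelial ligand gene Dll4 was at 9.999, 8.17 and 5.17 CPM in high dose, against 5.96, 5.52 and 4.52 CPM in low dose (0.54, SE 0.28). Hes1, another target, was not higher, with 18.7, 30.0 and 29.3 CPM in high dose, against 30.6, 29.8 and 31.0 CPM in low dose (-0.23, SE 0.18). Hes1 and Heyl were chosen after their values were seen. The Notch median stayed between 0.24 (low-dose replicate 3 omitted) and 0.53 (low-dose replicate 1 omitted), and Notch2 passed beside Notch3 without low-dose replicate 1 (log2 fold change 0.72, SE 0.11, adjusted p 0.0435 with edgeR).

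All 21 tested genes of cholesterol synthesis were above 0 in high dose minus low dose, with a median log2 fold change of 0.39. With 1 member at an unadjusted p under 0.05 (4.76%), the list was near the 2.75% of all genes, and 5 members did not overlap, against 4.16% of all genes. The promoter of Hmgcs1, the synthase that starts the mevalonate pathway, is shown because the CCAAT letters, in capitals on either strand, recur in it (chr13:119690101-119690400, plus strand, RefSeq, GRCm38.p6).
Hmgcs1: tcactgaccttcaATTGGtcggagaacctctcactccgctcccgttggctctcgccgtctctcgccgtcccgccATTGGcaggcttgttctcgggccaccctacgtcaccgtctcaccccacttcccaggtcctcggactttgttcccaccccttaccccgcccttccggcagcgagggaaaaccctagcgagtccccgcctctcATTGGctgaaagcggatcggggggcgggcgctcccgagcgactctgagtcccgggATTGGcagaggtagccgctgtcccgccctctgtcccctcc

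CCAAT or its reverse complement was in 14 of the 15 cholesterol synthesis promoters with an entry (93.3%), against 39.1% of all promoters. Hmgcs1 was at 249.7, 411 and 283 CPM in high dose, against 225, 200.2 and 217 CPM in low dose, with stress at 309.9, 216 and 431 CPM. The lowest high-dose library lay above the highest low-dose library, and high-dose replicate 2 stood highest of the 6. The log2 fold change of Hmgcs1 was 0.55 (SE 0.26). Sc5d, a late enzyme of the pathway, was at 52.7, 69.1 and 47.2 CPM in high dose, against 42.8, 39.0 and 46.2 CPM in low dose (0.40, SE 0.16). Srebf2 was at 239, 329.8 and 275 CPM in high dose, against 209, 177 and 256 CPM in low dose (0.40, SE 0.18). Ebp, sterol isomerase, was level at 28.9, 40.0 and 30.3 CPM in high dose, against 30.6, 36.4 and 32.0 CPM in low dose. The median against stress was 0.07 in high dose and -0.35 in low dose.

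Fatty acid synthesis genes were higher in all 12 cases with a median of 0.29. Elovl5, an elongase of unsaturated fatty acids, was at 68.1, 83.1 and 68.9 CPM in high dose, against 58.0, 59.2 and 63.3 CPM in low dose (0.29, SE 0.11), and was the 1 member of 12 with an unadjusted p under 0.05 (against 2.75% of all genes) and the 1 without overlap (against 4.16%). Fasn, fatty acid synthase, was at 211, 334 and 236 CPM in high dose, against 187, 137 and 251 CPM in low dose, and Acaca, which makes its substrate, at 59.8, 74.8 and 74.2 CPM against 59.0, 44.3 and 65.9 CPM. Without high-dose replicate 2 the cholesterol median was 0.14 and the fatty acid median 0.20. After the length and GC trends were removed, the log2 fold change was 0.24 for Fasn (0.44 before), 0.10 for Acaca (0.30 before) and 0.31 for Elovl5.

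Interferon-induced genes were higher in high dose, chiefly in 1 library. All 22 type I interferon genes were above 0 with a median of 0.52, and 15 of 17 interferon gamma genes with a median of 0.53, but 0 members of either list had an unadjusted p under 0.05. Stat2, a transducer of interferon signals, was at 86.2, 183 and 69.9 CPM in high dose, against 82.9, 61.9 and 75.3 CPM in low dose. Gbp4, a guanylate-binding protein, was at 175, 261 and 110.4 CPM in high dose, against 153, 77.7 and 90.9 CPM in low dose, and the RNA sensor gene Ddx58 at 60.3, 69.2 and 55.5 CPM against 58.4, 37.3 and 40.6 CPM. High-dose replicate 2 was highest for each of them. Without high-dose replicate 2 the medians were 0.07 for type I and -0.09 for interferon gamma.

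The same library held the most RNA of skeletal muscle. The CPM of the 24 tested muscle markers summed to 115, 788 and 147 in high dose and to 99.96, 169 and 393 in low dose, and 22 of the 24 were higher in high dose. Acta1, skeletal muscle actin, was at 0.722, 125 and 3.25 CPM in high dose, against 0.225, 0.517 and 52.0 CPM in low dose. The muscle median was 1.301 with all libraries, -1.81 without high-dose replicate 2 and 4.96 without low-dose replicate 3. With the muscle-rich libraries high-dose replicate 2, low-dose replicate 3 and control replicate 1 omitted, the type I interferon median was 0.11, the hypoxia median -0.06, the immediate early median -0.72, the dendritic cell median 1.07 and the cholesterol median 0.26.

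Other markers of blood and bystander cells were uneven between libraries of a dose. Red blood cell genes summed to 292, 54.2 and 13.8 CPM in high dose and to 42.1, 45.3 and 25.3 CPM in low dose, and 4 of the 5 tested were higher in high dose. The globin genes Hba-a1 and Hbb-bs have near-identical copies and are uncertain. Of 7 tested mast cell genes 6 were higher in high dose, and the list summed to 32.0, 17.5 and 14.6 CPM in high dose and to 16.4, 16.3 and 19.6 CPM in low dose. Cpa3, a mast cell protease, was at 2.94, 0.118 and 0.290 CPM in high dose, against 0.225, 0.230 and 0.361 CPM in low dose. Without high-dose replicate 1 the red blood cell median was -0.28 and the mast cell median -0.30. Jchain of plasma cells was at 11.3, 5.23 and 0.174 CPM in high dose, against 0, 0.115 and 1.32 CPM in low dose, while the B cell gene Ms4a1 was at or below 0.181 CPM in every library. The neutrophil genes S100a8 and S100a9 were at or below 0.745 CPM, and the 6 tested genes of that list were split 3 higher and 3 lower. The adipocyte markers Adipoq and Plin1 were at or below 0.278 CPM, and Krt5 of skin was at 0 in the high-dose and low-dose libraries. The part of these cells in the differences between the doses was not tested.

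No glucocorticoid target passed the adjusted threshold between the doses with edgeR. Among 17 glucocorticoid target genes 14 were lower in high dose with a median of -0.29, and 1, Dusp1, had an unadjusted p under 0.05, against 3.64% of all genes. The median was -0.05 without low-dose replicate 1. The standard glucocorticoid targets Fkbp5 and Tsc22d3 were at 263, 235 and 278 CPM and at 230.0, 197 and 231 CPM in high dose, against 339, 220.2 and 203 CPM and 318, 223 and 188 CPM in low dose, and both overlapped. Mt1, a metallothionein, was at 118, 172 and 139 CPM in high dose, against 107, 356 and 175 CPM in low dose (-0.58, SE 0.35). The glucocorticoid receptor gene Nr3c1 was at 124, 99.9 and 124 CPM in high dose, against 120.3, 96.0 and 88.3 CPM in low dose. The 12 cyclic AMP targets had a median of 0.01, and the 1 member without overlap, against 4.16% of all genes, was Pde4b, a cyclic AMP phosphodiesterase, at 25.9, 32.0 and 19.3 CPM in high dose, against 16.2, 18.1 and 15.5 CPM in low dose (0.63, SE 0.22).

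None of the 23 G1/S and 24 G2/M genes of cell division had an unadjusted p under 0.05 with edgeR. The G1/S genes were 13 higher and 10 lower with a median of 0.00, and the G2/M genes 18 higher and 6 lower, against 50.8% higher over all genes, with a median of 0.14. With each library left out, the G1/S median ran between -0.16 (high-dose replicate 2 omitted) and 0.22 (low-dose replicate 3 omitted). The G2/M median ran between 0.02 (low-dose replicate 1 omitted) and 0.33 (low-dose replicate 3 omitted). Mki67, the proliferation marker, was at 508, 628 and 692 CPM in high dose, against 444, 385 and 596 CPM in low dose (0.36, SE 0.19), and the doses overlapped. The 22 apoptosis genes had a median of 0.02. Bcl2a1b, an anti-apoptotic BCL2 relative whose near copies make its count uncertain, was at 23.1, 20.9 and 16.8 CPM in high dose, against 29.3, 28.1 and 38.5 CPM in low dose (-0.66, SE 0.27).

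T cell and cytotoxic genes did not move together. Of 19 T cell genes 8 were higher and 11 lower, with a median of -0.09, and of 18 cytotoxic genes 13 were higher and 5 lower, with a median of 0.17 and 0 at an unadjusted p under 0.05. Tcf7, a transcription factor of naive and memory T cells, was at 37.9, 41.1 and 38.4 CPM in high dose, against 30.3, 34.8 and 19.99 CPM in low dose (0.46, SE 0.16). The T cell receptor subunit gene Cd3e, which marks the cells more strictly, was at 3.61, 2.94 and 1.16 CPM in high dose, against 3.43, 2.76 and 2.35 CPM in low dose. Gzmb, granzyme B, was at 12.2, 15.99 and 22.3 CPM in high dose, against 10.2, 14.7 and 19.6 CPM in low dose. Macrophage genes were lower in 14 of 21 cases with a median of -0.09. Arg1, arginase of alternatively activated macrophages, was at 101, 173 and 77.5 CPM in high dose, against 191, 193 and 706 CPM in low dose (-1.63, SE 0.72), and Trem2, a lipid receptor of macrophages, at 22.0, 13.4 and 13.1 CPM against 31.0, 27.9 and 18.2 CPM (-0.67, SE 0.25). All 3 Arg1 values of high dose lay below low dose, and low-dose replicate 3 alone held 706 CPM. Adgre1, the macrophage marker F4/80, was nearly equal, at 68.3, 30.3 and 37.4 CPM in high dose, against 64.0, 32.9 and 34.9 CPM in low dose.

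**Figure D4:**
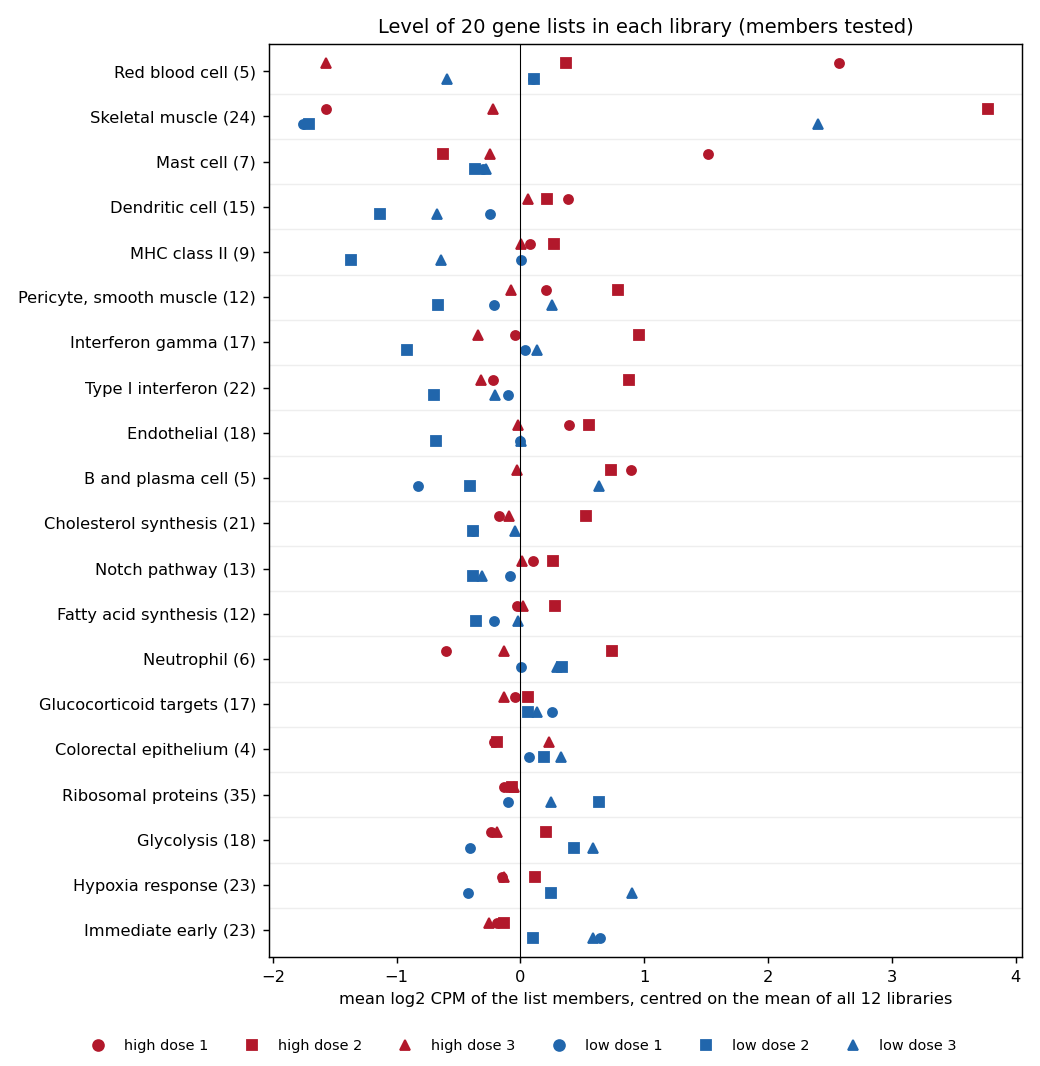
Mean log2 CPM of the tested members of 20 gene lists in each high-dose and low-dose library, centred on the mean of all 12 libraries. Each row is a list, with the high-dose libraries (red) above the low-dose libraries (blue). The class II genes are at 0.07, 0.27 and 0.01 in high dose and at 0.01, -1.37 and -0.64 in low dose, and the immediate early genes at -0.19, -0.13 and -0.26 in high dose and at 0.64, 0.11 and 0.59 in low dose.

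Without low-dose replicate 1, the low-dose library of the closest pair across doses, 99 genes passed with edgeR at an adjusted p of 0.05. That fit takes the low-dose spread from 2 libraries and from the estimate that the groups share. Leaving out the low-dose library closest to a high-dose library can itself widen the gap between the doses, so these passes are a description. Leaving out any other single library gave 0 genes. The low-dose libraries that remain are those with correlations with transcript length of -0.52 and -0.16, and ribosomal protein transcripts are short. Among list members, 6 of 35 ribosomal protein genes were lower (Rps14, Rps16, Rps10, Rpl18, Rpl13 and Rpl12), against 0.44% of all genes. Higher, against 0.286% of all genes, were Notch2 and Notch3 among 13 Notch pathway genes and Dnase1l3 among 15 dendritic cell genes. Il6st, the shared receptor subunit of the interleukin 6 family, was also higher, as 1 of 14 genes of its list. Lower, against the same 0.44%, were Tpi1 (1 of 18 glycolysis genes), the complex III subunit gene Uqcrq (1 of 32) and Eif4ebp1, a repressor of translation (1 of 19). Most of the 55 lists had no member that passed. Itga6 passed with a log2 fold change of 0.89 (SE 0.15, adjusted p 0.0435). No immediate early gene passed, and low-dose replicate 1 was the low-dose library with the highest mean level of that list. With edgeR in that fit, the adjusted p was 0.0989 for Junb and 0.108 for Ier2.

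**Figure D5:**
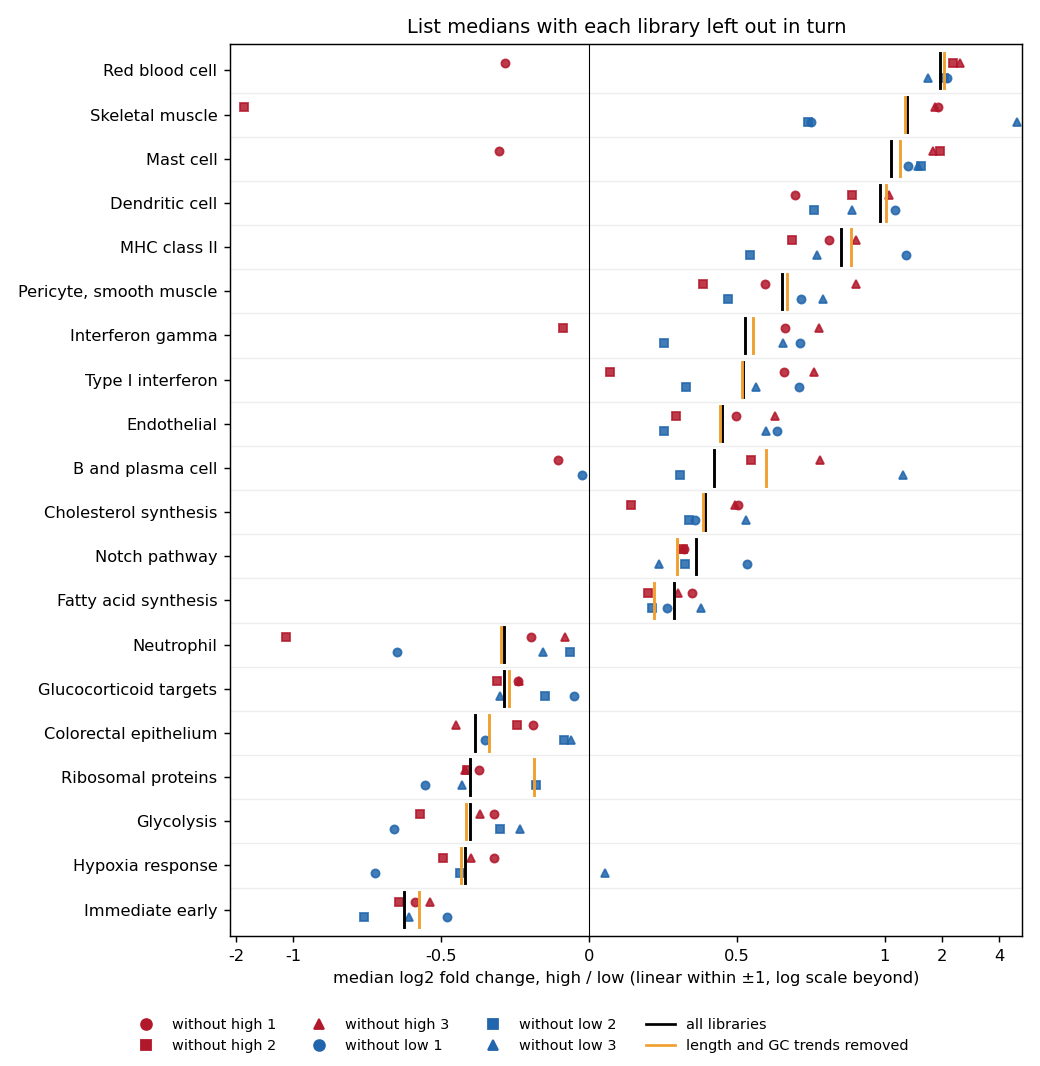
Median log2 fold change (high dose minus low dose) of each gene list with all libraries (black), with each of the 6 libraries left out, and with length and GC trends removed (orange). The axis is linear within 1 of 0 and logarithmic beyond. The immediate early median stays between -0.48 and -0.76, while the skeletal muscle median runs from -1.81 to 4.96.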

How the data were processed

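RNA of subcutaneous tumours was sequenced in 12 libraries, 3 each of high dose, low dose, stress and control. Per the labels' protocols, the authors took RNA whose integrity number exceeded 7.0, selected it with oligo(dT), and sequenced strand-marked libraries as read pairs. Per the submitters' processing notes, the authors used cutadapt 1.9, HISAT2 2.0.4, StringTie 1.3.4d and the GRCm38.p6 build, and DESeq2 and edgeR without versions. The annotation and the counting options are not given in the sources used here. The deposited estimated counts are the authors' values per gene, not scaled further, and 11.7% to 12.5% of them in each library were not whole, and they were rounded, since the design had assumed whole numbers. The deposited FPKM values, per gene length and depth, served only to choose named genes. The deposited TPM values, which the authors scaled to a common sum per library, served only to check units. Symbols turned into dates were restored for 26 genes. Entrez IDs matched the RefSeq table for 17820 genes. Genes of the mitochondrial genome were not analysed here.

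Genes were kept with filterByExpr at a minimum count of 10 and tested with edgeR 4.0.16 (R 4.3.3) quasi-likelihood with robust fitting and TMM factors, 2-sided, in 1 model of 12 libraries and 4 groups (8 residual degrees of freedom, common dispersion 0.038). Adjustment was by Benjamini-Hochberg across the tested genes at 0.05. Depth allowed a median SE of 0.164 for a log2 fold change. Fold changes are high dose minus low dose on the log2 scale. The test was checked on simulated counts.

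The members and lists, 55 gene lists with 883 tested memberships, were chosen with earlier results of these data known, so lists were described by counts and medians without a test. Named genes were first the 10 per direction with the smallest unadjusted p. These had no overlap between the doses, an official symbol and, in the higher dose, a mean FPKM of 1 or more. Up to 3 members by p were added from each list whose median was 0.25 or more from that of all genes. The lists on cyclic AMP, G1/S, G2/M, apoptosis, T cell, cytotoxic and macrophage genes gave up to 2 members each. Cell type markers were also named. Some genes are not reported here. Other genes named in the text (Vim, Egr1, Atf3, Fos, Ndufa2, Ebp, Fkbp5, Tsc22d3, Nr3c1, Hes1, Heyl, Dnase1l3, Tlr12, Gm20594 and those of the closing section) were chosen after their values were seen. Alternatives were DESeq2 1.42.0, limma-voom 3.58.1 with quality weights, scaling by RLE, a minimum count of 50, no filter, the 6 dose libraries alone, each library left out, the replicate number as a block, 2 adjustments for muscle RNA, and removal of length and GC trends. Omission of low-dose replicate 2 with high-dose replicate 3 was added after seeing the data.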

Additional observations from a re-analysis of the deposited data

How the results depend on the processing

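With edgeR, 0 genes passed under every alternative that kept low-dose replicate 1. The count of changed genes was 5 with DESeq2, ran from 0 to 99 with each library left out (99 without low-dose replicate 1, in 39 higher and 60 lower), and was 111 (64 higher, 47 lower) when the adjusted p was replaced by an unadjusted p under 0.05 plus a log2 fold change of 1 or more in size. The count at an unadjusted p under 0.05 was 308 with the 6 dose libraries alone, 396 with the muscle-rich libraries omitted, 385 with low-dose replicate 2 and high-dose replicate 3 omitted, and 463 to 3026 with each library left out (463 without low-dose replicate 2, 525 without high-dose replicate 3, 3026 without low-dose replicate 1), against 860 with all libraries. The replicate numbers did not pair the libraries: the deviations of same-numbered libraries correlated at 0.45, -0.19 and -0.27, and 2 of the 6 libraries correlated best with their own number. The replicate block gave 0 genes past the adjusted threshold and 807 at an unadjusted p under 0.05. Log2 fold changes turned round with 1 library left out for 7 named genes. With each library left out, they ran from -0.39 to 2.96 for Mcpt2, from -0.39 to 2.55 for Cpa3 and from -0.32 to 2.48 for Hbb-bt, below 0 only without high-dose replicate 1. They ran from -0.74 to 10.7 for Myh2, from -0.27 to 5.54 for Myh1 and from -0.11 to 6.30 for Actn2, below 0 only without high-dose replicate 2, and from -0.89 to 0.014 for Mt1, above 0 only without low-dose replicate 2. With high-dose replicate 3 omitted as well, Mt1 was at 0.031. The causes were not tested. Of the list medians, 40 values under an alternative moved by more than the spread between libraries and 895 did not.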

Other observations

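Lysosomal and autophagy genes were lower in high dose in 20 of 23 cases, with a median log2 fold change of -0.21, against a median of 0.0042 over all genes tested, and 3 were lower at an unadjusted p under 0.05 with edgeR, against 3.64% of all genes. Ctsd, the aspartic protease cathepsin D, was at 493, 325 and 300.2 CPM in high dose, against 501, 731 and 439 CPM in low dose, and the doses overlapped. Atg5, which is needed to extend the autophagosome membrane, was at 28.3, 26.0 and 26.1 CPM in high dose, against 33.8, 37.2 and 33.1 CPM in low dose, without overlap (log2 fold change -0.37, SE 0.11). The list median was -0.08 without low-dose replicate 2.

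Genes of the PI3K, AKT and mTOR pathway were higher in high dose in 15 of 19 cases with a median of 0.17, which was 0.00 after the length and GC trends were removed. Genes of mesenchymal transition were lower in 12 of 14 cases with a median of -0.16. The fibroblast genes were lower in 13 of 18 cases with a median of -0.12, and Col3a1, a fibrillar collagen, was at 14839, 3004 and 9458 CPM in high dose, against 16653, 9130.4 and 3436 CPM in low dose. The range within each dose was larger than the difference between the doses. Kit, a receptor tyrosine kinase of mast cells and progenitors, was at 5.33, 4.17 and 3.60 CPM in high dose, against 3.54, 2.53 and 2.35 CPM in low dose, without overlap (0.64, SE 0.25).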
